A study of Arabidopsis thaliana with 8 samples.

Results

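JAZ genes encode the repressors of jasmonate signalling in Arabidopsis thaliana. The set described here holds 9 loci listed by their AGI codes, JAZ1 (AT1G19180), JAZ2 (AT1G74950), JAZ3 (AT3G17860), JAZ5 (AT1G17380), JAZ6 (AT1G72450), JAZ7 (AT2G34600), JAZ9 (AT1G70700), JAZ10 (AT5G13220) and JAZ12 (AT5G20900). Of these 9, 8 had a probe among the 21500 genes of the array, with 1 probe each, and JAZ7 had none. Probes were matched to members by locus code. JAZ4, which also had a probe, is outside the set and is described beside its relatives.

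The material was the shoot of 13-day-old Columbia-0 seedlings, a wild-type accession, grown on sucrose-containing agar under long days. In the root-wounded group the primary root had been cut by razor blade at 5 mm below the shoot base, and the shoots were taken 360 or 30 min later. The control group had unwounded roots, shared every other condition and was taken at the same times. Each wounded RNA was hybridised against the control RNA of its own time on a 2-colour Agilent array. Each time had 2 biological replicates, and each replicate was measured on 2 arrays with the dyes exchanged, which gave 8 arrays. How many seedlings made up a replicate was not stated, and whole shoots were extracted, so more cells expressing a gene and more RNA per cell cannot be told apart.

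JAZ proteins bind MYC-type transcription factors and hold them inactive, together with the adaptor NINJA and co-repressors of the TOPLESS family. Jasmonoyl-isoleucine, the active hormone, joins a JAZ protein to the F-box receptor COI1, after which the JAZ protein is ubiquitinated and degraded and the MYC factors are released. The JAZ genes are themselves targets of MYC factors, so new repressor transcript is made while the old protein is destroyed, and in leaves they are known as rapid wound- and jasmonate-responsive genes.

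Fold changes and log2 ratios below are root-wounded over control, errors are SDs of 2 replicate means, levels are normalised log2 intensities of a single channel and compare conditions within a probe only, and a change was called at a Benjamini-Hochberg adjusted p under 0.05 over all genes tested with limma. Dim genes were left out: to be kept, a gene had to be well above background in all channel measurements of 1 or more of the 4 conditions, as were 19178 genes. All 8 JAZ probes met this rule. For 7 of them the signal was well above background in every channel of every condition. Background shares below include the dimmer genes kept, also where they stand beside counts of genes measured everywhere in this sense. JAZ5 passed only through the wounded shoots at 30 min. Its control was well above background on 1 of 4 arrays at 30 min, and at 360 min the wounded and control channels were on 2 and 1 of 4. On the 360 min arrays 89.6% to 94.9% of wounded-channel signals were well above background, and on the dimmer 30 min arrays 72.3% to 88.6%. Precision is limited by the number of arrays, which come from 2 biological replicates at each time.

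At 30 min all 8 members of the set with a probe were higher in the shoots of root-wounded seedlings, on every one of the 4 arrays, whereas JAZ4, outside the set, was not called (0.07). The 7 members measured everywhere were all called higher, against a background of 4.52% of all genes tested. With only genes measured everywhere tested, 884 of 14301 were called higher. The median log2 ratio of the 7 was 2.103, where that of all genes was -0.00. The set was chosen with earlier results of these data known, so its comparison with all genes is not independent support. JAZ5 was called too, but had to be high in the wounded shoots to be tested at all. The size of the change differed widely within the family, 13.4-fold for JAZ9 and 1.75-fold for JAZ3. JAZ3, the lowest of the members, lay just below the 99th percentile of all genes, a log2 ratio of 0.87, and the other 7 lay above it. Both sizes and order depended on the treatment of background. On the authors' deposited log ratios JAZ1 was highest, at 4.43, and JAZ12 lowest, at 1.15.

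JAZ1 and JAZ2 are close relatives, and JAZ1 was among the JAZ proteins through which the repressor family was defined. In wounded shoots at 30 min the log2 level of the JAZ1 probe was 10.74 and 10.77, against 7.42 and 7.16 in control shoots. The scanned signals on the array of replicate 1 with wounded RNA in Cy5 were 1370 in the wounded channel and 132 in the control channel, over local backgrounds of 115 and 85. The control stood much closer to its background than the wounded channel did. The 4 arrays gave log2 ratios of 3.19, 3.45, 3.48 and 3.73, and JAZ1 rose by 3.46 ± 0.20 (n = 2), an 11.0-fold change (limma, adjusted p = 2.33e-05). JAZ2, whose product takes part in jasmonate signalling in guard cells, had levels of 9.15 and 9.71 in wounded shoots and 7.29 and 7.36 in control shoots. It rose by 2.103 ± 0.34, a 4.30-fold change (limma, adjusted p = 0.000457), less than JAZ1 on every array. With no background correction the JAZ2 ratio was 1.60, and on the authors' deposited log ratios it was 2.98.

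JAZ5 and JAZ6 form a second related pair, and both proteins carry an EAR motif, a short peptide that binds TOPLESS-type co-repressors. JAZ6 had log2 levels of 12.11 and 12.02 in wounded shoots and 8.53 and 8.70 in control shoots at 30 min. Its 4 array ratios lay between 3.16 and 3.62, and it rose by 3.45 ± 0.19, a 10.9-fold change (limma, adjusted p = 0.000338). JAZ5 had levels of 7.98 and 7.98 in wounded shoots and 6.59 and 6.39 in control shoots. Its wounded signal was well above background on all 4 arrays and its log2 ratio was 1.49 ± 0.14 (limma, adjusted p = 0.000184). The size of the JAZ5 change is uncertain, because its control signal was near background: on the array of replicate 1 with wounded RNA in Cy5 the scanned signals were 260 in the wounded channel and 115 in the control channel, where the local backgrounds were 116 and 85.

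JAZ9 and JAZ3 belong to the branch of the family that also holds JAZ4. JAZ3 is the gene of the dominant jasmonate-insensitive jai3-1 mutant, and the degradation motif of JAZ9 is used in a fluorescent jasmonate sensor. The JAZ9 probe had log2 levels of 13.27 and 13.24 in wounded shoots at 30 min and of 9.18 and 9.84 in control shoots. The scanned signals on the array of replicate 1 with wounded RNA in Cy5 were 8290 in the wounded channel and 269 in the control channel. JAZ9 rose by 3.75 ± 0.49 (limma, adjusted p = 0.000359). Its replicates, at 4.10 and 3.40, differed more than those of any other member, and the levels show the difference in the control shoots and not in the wounded ones. JAZ9 ranked 2, JAZ1 4 and JAZ6 5 from the highest among 19177 genes.

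JAZ3 had levels of 8.16 and 7.59 in wounded shoots and 7.35 and 6.79 in control shoots at 30 min. The replicates differed in level, but the ratio was 0.81 in both, and JAZ3 rose by 0.81 ± 0.01 (limma, adjusted p = 0.000385). The single arrays lay further apart, at 0.88 and 0.74 in replicate 1 and 0.68 and 0.93 in replicate 2. With no background correction the JAZ3 ratio was 0.53, and on the authors' deposited log ratios it was 1.49. JAZ4 did not pass: its log2 ratio was 0.06 in replicate 1 and 0.08 in replicate 2 (limma, adjusted p = 0.538). The 3 genes of the branch thus had log2 ratios of 3.75, 0.81 and 0.07.

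JAZ10 and JAZ12 stand apart from these pairs. JAZ10 transcripts can be spliced to forms that lack part of the degradation motif and resist the hormone, and these arrays do not separate splice forms. JAZ10 had log2 levels of 9.58 and 9.78 in wounded shoots and 8.61 and 8.52 in control shoots at 30 min, and rose by 1.12 ± 0.21 (limma, adjusted p = 0.0121). It was the member on which the dyes agreed least. In replicate 1 the log2 ratio was 1.55 with wounded RNA in Cy5 and 0.39 with wounded RNA in Cy3, a gap that 0.0474% of genes exceeded. In replicate 2 the ratios were 1.13 and 1.40. Of the members' calls at 30 min only that of JAZ10 was lost under any other processing that tested the member: its adjusted p was 0.148 without replicate 1 of this time, 0.229 without replicate 2 and 0.314 with the arrays of wounded RNA in Cy3 alone.

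JAZ12, whose product is known for its control by the E3 ligase KEEP ON GOING, had levels of 9.66 and 9.40 in wounded shoots and 8.57 and 8.54 in control shoots at 30 min. It rose by 0.97 ± 0.16, a 1.96-fold change (limma, adjusted p = 0.000823). For JAZ12 both wounded levels lay above both control levels, as for the other 6 members measured everywhere and for 7.55% of all genes tested. JAZ5, favoured by the filter, did not overlap either. These levels are means of a dye pair. For JAZ10 the single arrays overlapped: in replicate 1 the control levels were 7.81 and 9.42, and the wounded levels 9.35 and 9.81.

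**Figure D1:**
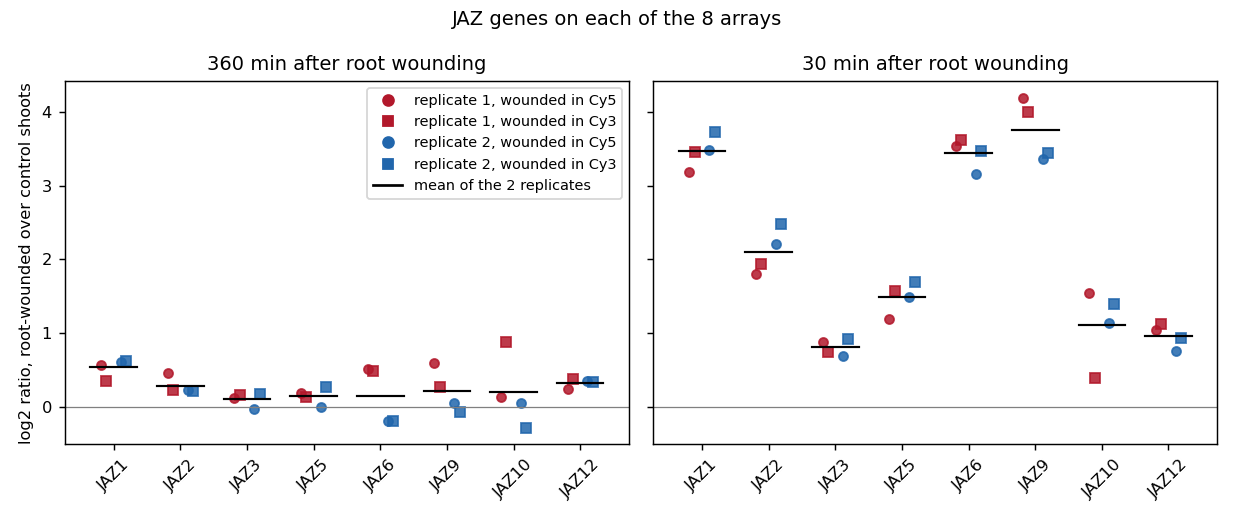
Log2 ratio of root-wounded over control shoots for the 8 JAZ genes with a probe, at 360 min (left) and 30 min (right). Each point is 1 array, the colour gives the replicate, the symbol gives the dye of the wounded RNA and the black line is the mean of the 2 replicates. At 360 min 26 of 32 points lie above 0 and none reaches 1, whereas at 30 min all 32 lie above 0.

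At 360 min only JAZ1 and JAZ12 were still called higher in wounded shoots, 2 of 8 members against a background of 3.08% of all genes tested, and neither change reached 1.5-fold. The median log2 ratio of the 7 genes measured everywhere was 0.21, and that of all genes was 0.00. JAZ1 had log2 levels of 6.97 and 7.19 in wounded shoots and 6.51 and 6.57 in control shoots. It was higher on all 4 arrays, by 0.54 ± 0.11 or 1.46-fold (limma, adjusted p = 0.0211). JAZ12 had levels of 8.74 and 9.06 in wounded shoots and 8.42 and 8.72 in control shoots. By means of dye pairs the JAZ12 levels of the groups did not overlap, and the share of all genes without overlap at 360 min was not computed. The single arrays overlapped: a wounded level of replicate 1 was 8.62, and the control levels of replicate 2 were 8.71 and 8.73. The JAZ12 ratios of the replicates were close, at 0.32 and 0.35. Its mean was 0.33 ± 0.02, a 1.26-fold change (limma, adjusted p = 0.0368). Both calls depended on the processing. JAZ1 passed in 12 of 18 alternatives, which changed the background correction, normalisation, filter, fit or replicates used (adjusted p of 0.000259 to 0.103) and JAZ12 in 7 of 18 (0.000969 to 0.167), with the direction kept in each. With each time fitted alone, which removes the spread borrowed from 30 min, the adjusted p was 0.0662 for JAZ1 and 0.076 for JAZ12. Leaving out either 30 min replicate gave this same fit at 360 min, so the 18 alternatives count it repeatedly. JAZ12 was also lost without 360 min replicate 1 (0.0782) or 2 (0.0859).

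The other 6 members did not pass at 360 min. JAZ2 had a log2 ratio of 0.28 ± 0.09 and was above 0 on all 4 arrays (95% interval 0.01 to 0.56, limma, adjusted p = 0.226). It was called higher with the 8 arrays and the dye pair as a random block (adjusted p = 0.0496) and with the arrays of wounded RNA in Cy5 alone (0.045). JAZ3 had 0.11 ± 0.05 (adjusted p = 0.203) and JAZ5 0.14 ± 0.02 (adjusted p = 0.228), each above 0 on 3 of 4 arrays. JAZ6, JAZ9 and JAZ10 differed between their replicates. Their log2 ratios were positive in replicate 1, at 0.50, 0.43 and 0.51, and below 0 in replicate 2, at -0.19, -0.01 and -0.11. The 95% interval of JAZ9 at this time was -0.23 to 0.66, that of JAZ6 -0.25 to 0.56 and that of JAZ10 -0.18 to 0.57, and each interval ended below the 30 min ratio of its gene. The dyes split on JAZ10 in replicate 1 at 360 min. Its log2 ratio was 0.14 with wounded RNA in Cy5 and 0.88 with wounded RNA in Cy3, a gap that 1.09% of genes exceeded. The JAZ6 arrays of that replicate were close, at 0.51 and 0.49.

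The test of the difference between times asked whether the wound response itself had changed. Of the 7 members measured everywhere, 6 were called with a lower log2 ratio at 360 min than at 30 min, against a background of 4.83% of genes tested. With only genes measured everywhere tested, 1038 of 14280 were called lower. The choice of the set with earlier results known limits this comparison too. JAZ5 was called lower too, but entered the test only through its high signal in wounded shoots at 30 min. The difference of log2 ratios was -3.53 for JAZ9 (limma, adjusted p = 0.00239), -3.29 for JAZ6 (adjusted p = 0.00221) and -2.92 for JAZ1 (adjusted p = 0.000378). It was -1.82 for JAZ2 (adjusted p = 0.00412), -1.34 for JAZ5 (adjusted p = 0.00133), -0.70 for JAZ3 (adjusted p = 0.00358) and -0.64 for JAZ12 (adjusted p = 0.0148). JAZ10, at -0.92, did not pass (adjusted p = 0.0662), and its 95% interval was -1.45 to -0.39. Without replicate 1 or without replicate 2 of the 30 min shoots, 4 of 8 members passed, JAZ1, JAZ2, JAZ5 and JAZ9. JAZ12 was also lost on the authors' log ratios (adjusted p = 0.0593) and with an offset of 0 (0.0568), and JAZ10 passed without 360 min replicate 1 (0.00323) or 2 (0.036), with the dye pair as a random block (0.0186) and with scale normalisation (0.0247). The dyes split on JAZ10, which passed with wounded RNA in Cy5 alone (0.000321) and not in Cy3 alone (0.638). At 360 min the mean log2 ratio of JAZ12 was 34.2% of that at 30 min, and 32.7% and 35.8% with replicate 1 or replicate 2 of the later time alone. The share of JAZ10 was 17.7%, but 45.7% with replicate 1 alone and below 0 with replicate 2 alone, as were those of JAZ6 and JAZ9 with replicate 2 alone. The shares therefore give the members no firm order, and they were not tested against each other.

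**Figure D2:**
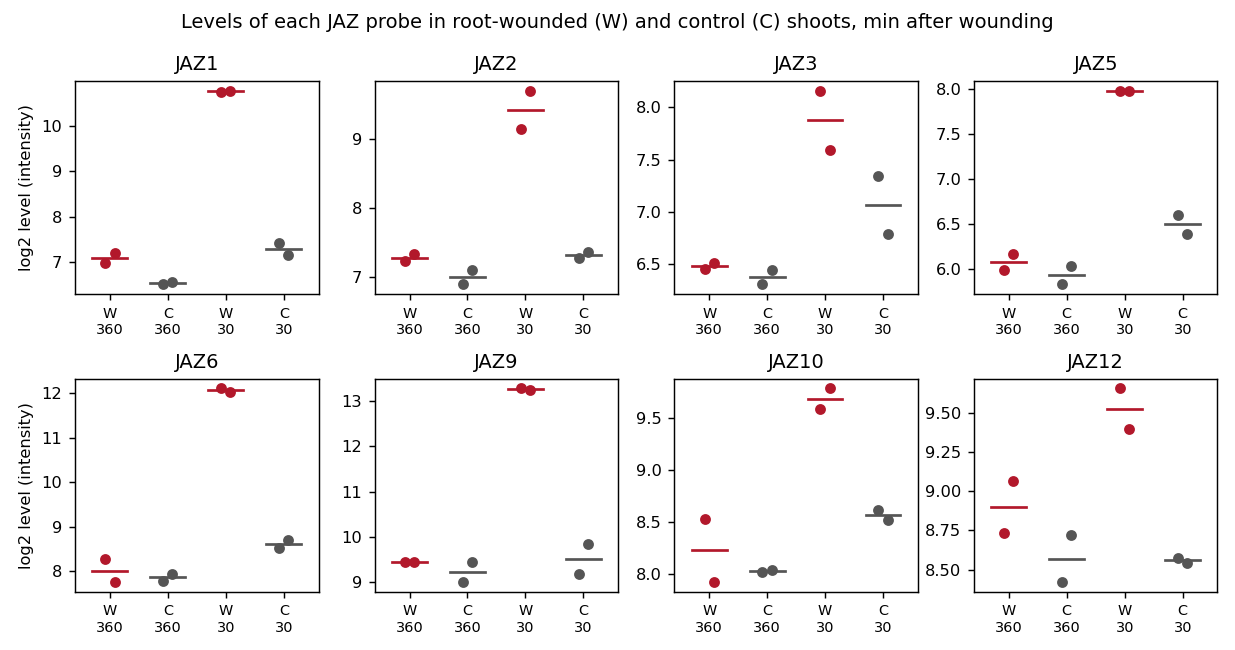
Log2 level of each JAZ probe, in normalised single-channel intensity, in root-wounded (W, red) and control (C, grey) shoots at 360 and 30 min. Points are the 2 replicates, lines their means, and each probe has its own axis. The wounded shoots at 30 min are the highest group for all 8 probes, and JAZ12 is the only probe whose wounded shoots at 360 min lie above the control shoots of both times.

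Single-channel levels placed each probe in the 4 conditions. For the 7 members measured everywhere the wounded shoots at 30 min were highest. By means of dye pairs they did not overlap with any other condition, as in 4.22% of all genes measured in the 4 conditions. JAZ5, favoured by the filter, showed the same. The order of conditions across times rests on the normalisation between arrays. Without it the wounded shoots of JAZ12 were higher at 360 min than at 30 min, by 0.41, and those of the other 7 probes remained lower at 360 min. For JAZ1, JAZ2, JAZ9 and JAZ10 the wounded shoots at 360 min overlapped with the control shoots at 30 min. For JAZ5, JAZ6, JAZ9 and JAZ10 the wounded and the control shoots at 360 min overlapped. For JAZ12, with normalisation, the wounded shoots at 360 min came next after those at 30 min, and its control shoots, at 8.57 on average at 360 min and 8.56 at 30 min, overlapped.

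In control shoots no difference between times was called for a member. The mean levels of all JAZ probes other than JAZ12 were lower at 360 min with normalisation between arrays, but without it those of JAZ1 (0.14), JAZ2 (0.63), JAZ3 (0.056), JAZ6 (0.32), JAZ9 (0.88) and JAZ10 (0.48) were higher at 360 min and JAZ12, at 1.05, was called higher (limma, adjusted p = 0.0266). That setting moved the median of all genes to 0.85. JAZ6 had 7.77 and 7.95 at 360 min, against 8.53 and 8.70 at 30 min, a difference of -0.76 (limma, adjusted p = 0.0969). JAZ1 had 6.51 and 6.57 at 360 min, against 7.42 and 7.16 at 30 min, a difference of -0.75 (adjusted p = 0.102). Of the 7 members measured everywhere, the control shoots of the 2 times overlapped for JAZ9 and JAZ12 and not for the other 5. Those of JAZ5 did not overlap either, but were well above background on only 1 of 4 arrays at each time. Both levels at 360 min lay below both at 30 min in 22.5% of all genes. No member passed with limma, and the background was 2.72% of genes called in either direction. An unadjusted p under 0.05 was found for 5 of 8 members, JAZ5 among them, and for 2404 of 19145 genes. The JAZ2 difference was -0.32 and that of JAZ9 -0.28, and JAZ12 was at 0.01. Without 30 min replicate 2 JAZ1, JAZ3 and JAZ6 passed, and without 30 min replicate 1 JAZ6 passed. These levels compare arrays with each other and rest on the normalisation between arrays more than the ratios do, and the time of day of each harvest was not given.

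In root-wounded shoots 6 of the 7 members measured everywhere were called lower at 360 min than at 30 min, against a background of 3.46% of genes called lower. JAZ5 was called too, with the same favour from the filter, and its wounded shoots at 360 min were well above background on 2 of 4 arrays. JAZ6 had 8.27 and 7.76 at 360 min, against 12.11 and 12.02 at 30 min, a difference of -4.05 on the log2 scale. The difference was -3.81 for JAZ9, -3.67 for JAZ1, -2.14 for JAZ2, -1.90 for JAZ5, -1.46 for JAZ10 and -1.39 for JAZ3. These 7 genes had adjusted p-values of 5.93e-06 or smaller (limma). JAZ12, at -0.63, did not pass (adjusted p = 0.167). JAZ10 was lost without 360 min replicate 2 (adjusted p = 0.0663) and with the 4 conditions in 1 fit (0.232), JAZ12 passed without 30 min replicate 2 (0.0305), and without normalisation between arrays JAZ3 (0.154) and JAZ10 (0.315) did not pass. The estimate of the spread in the fit for wounded shoots, with normalisation, had 573 prior against 2 residual degrees of freedom, so these p-values rest almost wholly on the spread of all genes and little on that of the member.

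The order of the members at 30 min depended on how background was treated. On the authors' deposited log ratios, in which background had been subtracted, JAZ1 was highest with a mean log2 ratio of 4.43, followed by JAZ9 at 3.94, JAZ6 at 3.795 and JAZ5 at 3.34. JAZ5 stood at 0.93 with no background correction, 1.49 with an offset of 50 and 3.35 with an offset of 0, the widest span of any member. JAZ6 ran from 3.13 to 3.802 and JAZ9 from 3.40 to 4.13 over all alternatives. JAZ3 and JAZ12, the lowest with an offset of 50, were at 1.49 and 1.15 in the authors' values. Every member stayed above 0 in every alternative at this time.

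**Figure D3:**
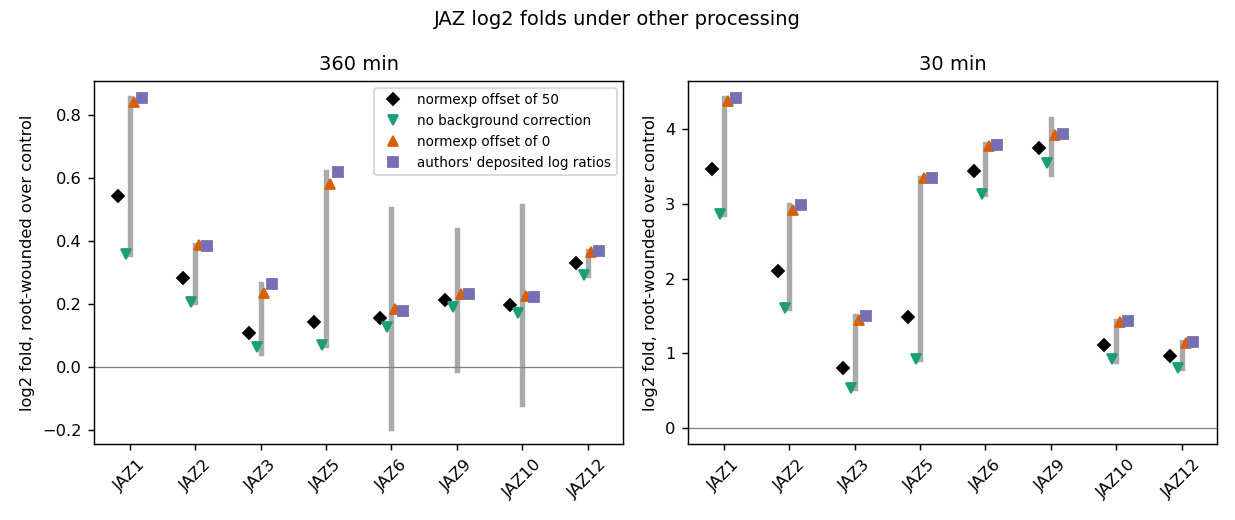
Log2 ratio of root-wounded over control shoots for each JAZ gene under other processing, at 360 min (left) and 30 min (right), on different vertical scales. Symbols mark the offset of 50 and 3 other treatments of background, and grey bars span all alternatives including those that leave out a replicate. At 30 min every bar lies above 0 and that of JAZ5 is the longest, and at 360 min the bars of JAZ6, JAZ9 and JAZ10 cross 0.

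The TIFY family holds the JAZ genes and relatives that share the TIFY motif. Besides JAZ4, the relatives tested were PPD2, a regulator of leaf growth, TIFY8, ZIM and ZML1. Of these 5 genes none was called at 30 min, at 360 min or for the difference (limma, and none had an unadjusted p under 0.05 in any of these). Their log2 ratios ran from -0.14 to 0.07 at 30 min and from -0.08 to 0.03 at 360 min, where those of JAZ4 and TIFY8 rest on replicate 2 alone. ZML2 was too dim to be tested.

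Most genes for proteins that act with JAZ repressors were not called, but MYC2, JAM1 and JAM2 were at 30 min. Of 15 genes for the receptor, MYC and JAM factors and co-repressors 3 were higher at 30 min and none lower, where the backgrounds were 4.52% and 2.16% of all genes. MYC2, the main MYC factor that JAZ proteins hold back, had 3.74 and 3.49 in the replicates and rose by 3.62 ± 0.18 (limma, adjusted p = 1.82e-05). JAM1, a bHLH factor that competes with MYC2 at its targets, rose by 2.18 ± 0.04 (adjusted p = 4.95e-05) and its relative JAM2 by 0.74 ± 0.02 (adjusted p = 0.00231). COI1 was at -0.04 ± 0.04 (adjusted p = 0.817) and NINJA at 0.25 ± 0.13 (adjusted p = 0.0599). At 360 min MYC2 was 0.72 higher, JAM1 0.32 and MYC5 0.29, again 3 of 15. At 360 min the background was 3.08%. The difference between times was called for 3, all lower at 360 min where 4.83% of all genes were, namely MYC2 (-2.89), JAM1 (-1.85) and JAM2 (-0.81).

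Of 8 other tested factors that JAZ proteins bind, 1 was higher and 1 lower at 30 min, against backgrounds of 4.52% and 2.16% of all genes. At 360 min 2 were higher, where the background was 3.08%, and for 1 the ratio was higher at 360 min than at 30 min, against 2.56%. MYB75, an activator of anthocyanin synthesis, rose by 0.97 ± 0.03 at 30 min (limma, adjusted p = 0.00119). EIL1, an ethylene-response factor, was the only one lower at that time, at -0.48 ± 0.07 (adjusted p = 0.00337), and its ratio was 0.39 higher at 360 min than at 30 min (adjusted p = 0.0269). At 360 min MYB75 was 1.29 ± 0.19 higher and TT8, its bHLH partner, 0.24 ± 0.07. Unlike the JAZ genes, MYB75 had no lower ratio at 360 min, the difference being 0.32 (adjusted p = 0.126).

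Most genes that make and remove the hormone were higher at 30 min, like the JAZ genes. Of 13 synthesis genes 10 were higher and none lower, against a background of 4.52% called higher, with a median log2 ratio of 0.86. Of the 11 measured everywhere 9 were higher. OPR3, the 12-oxophytodienoate reductase (3.86 ± 0.23), OPCL1, a CoA ligase (3.35 ± 0.03), and LOX3, a lipoxygenase (3.27 ± 0.20), were among those with the smallest adjusted p-values, with the allene oxide synthase gene AOS (1.96) level with LOX3. At 360 min 4 were called higher, where the background was 3.08%, namely LOX2 (1.73 ± 0.20), AOS (0.85 ± 0.07), OPCL1 (0.49 ± 0.03) and AOC4 (0.47 ± 0.02), and for 7 the ratio was called lower at 360 min than at 30 min, against 4.83% of all genes. Of 10 conjugation and turnover genes 7 were higher at 30 min and none at 360 min. At 360 min 1 of 10 had an unadjusted p under 0.05 (limma), as did 4086 of 19146 genes tested. Among the 7 higher at 30 min, ILL6, an amidohydrolase gene, and AT2G38240, a jasmonate oxidase gene, were tested only through their signal in wounded shoots at 30 min. Of the 8 measured everywhere 5 were higher at 30 min and 4 had a lower ratio at 360 min. The cytochrome P450 gene CYP94C1, which oxidises jasmonoyl-isoleucine, rose by 3.07 ± 0.59, and the amidohydrolase gene IAR3, which cleaves it, by 2.33 ± 0.01. AT5G05600, a jasmonate oxidase gene, rose by 1.88 ± 0.00. The ratio of CYP94C1 at 360 min rests on replicate 2 alone.

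Among 11 genes known as jasmonate outputs 7 were higher at 30 min and 6 at 360 min, against backgrounds of 4.52% and 3.08%. Of the 7 measured everywhere 6 were higher at 30 min and 5 at 360 min. VSP2, a vegetative storage protein gene, had 2.27 ± 0.21 at 360 min and 1.08 ± 0.12 at 30 min, and its ratio was higher at 360 min by 1.18 (limma, adjusted p = 0.00552). VSP1 had 3.32 ± 0.51 at 360 min and 1.62 ± 0.21 at 30 min. CLH1, a chlorophyllase gene, and ANAC019, a NAC factor gene, went the way of the JAZ genes, with differences, 360 min minus 30 min, of -1.88 and -1.21. For the difference between times 3 output genes were called higher, where the background was 2.56%, and 2 lower, where it was 4.83%.

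**Figure D4:**
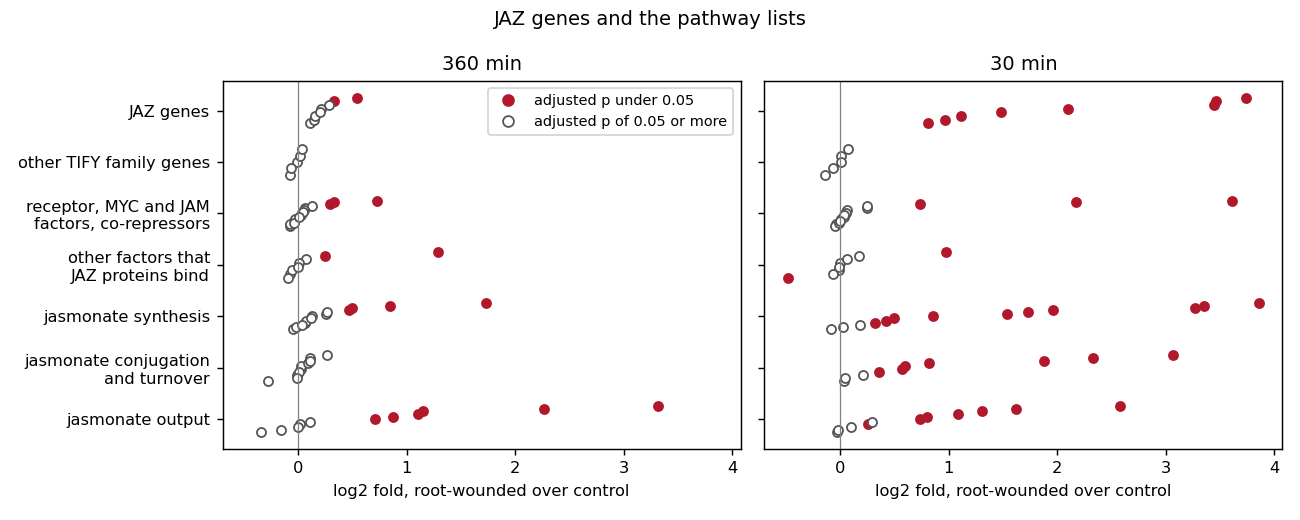
Log2 ratio of root-wounded over control shoots at 360 min (left) and 30 min (right) for the JAZ genes and 6 lists of related genes. Each point is 1 gene, and filled points have an adjusted p under 0.05. The JAZ, synthesis and turnover genes and MYC2 spread up to between 3 and 4 at 30 min, whereas at 360 min the points above 2 are the output genes VSP1 and VSP2.

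Likeness to the JAZ pattern was measured as the Euclidean distance, over the 4 replicate log2 ratios, to the mean of the 8 members. That mean was 0.36 and 0.13 in the replicates at 360 min and 2.14 and 2.15 at 30 min. Of 17436 other genes the closest was JAM1, at a distance of 0.13, with 0.43 and 0.22 at 360 min and 2.20 and 2.15 at 30 min. It was followed by ADT5, an arogenate dehydratase gene (0.29), AT3G51450 (0.31), the exocyst subunit gene EXO70H7 (0.34) and CAF1a, a deadenylase gene (0.36). The closest member, JAZ2, lay at 0.35 and JAZ9 at 2.33, so the mean describes the middle of a spread-out set. The distances come from 4 replicates and carry no test.

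**Figure D5:**
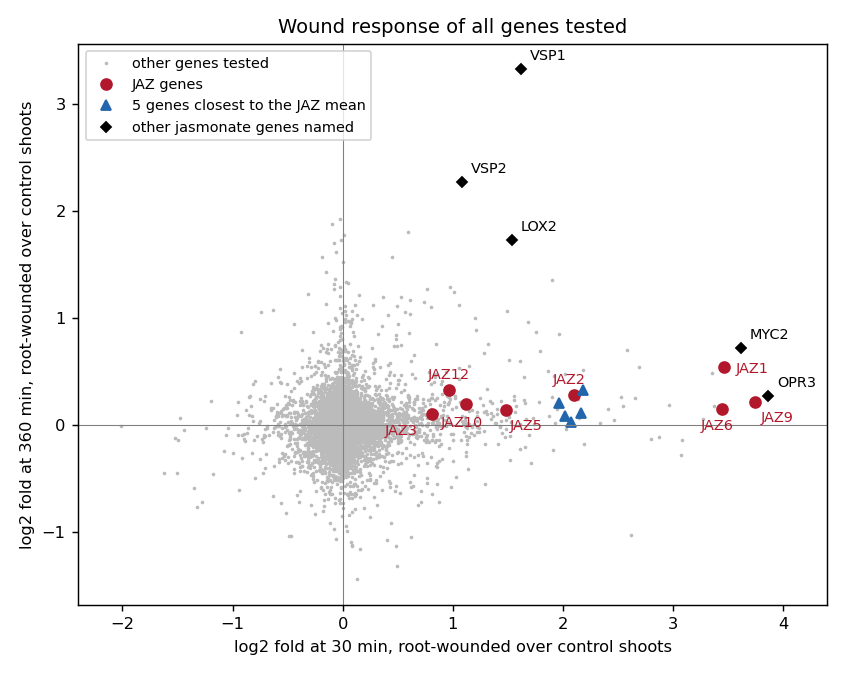
Log2 ratio of root-wounded over control shoots at 360 min (vertical) against 30 min (horizontal) for all genes tested (grey). JAZ genes are red circles, the 5 genes closest to their mean blue triangles and other jasmonate genes black diamonds. The JAZ genes lie along the horizontal axis, between 0.11 and 0.54 at 360 min and between 0.81 and 3.75 at 30 min, whereas VSP1, VSP2 and LOX2 lie above them.

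All 6 shoot marker genes, for photosynthetic proteins, and 5 of 7 root marker genes were well above background in every channel of all conditions. At 30 min none of the 6 tested root markers and none of the 6 shoot markers was called (limma, and none had an unadjusted p under 0.05), with log2 ratios of -0.18 to 0.05 and -0.10 to 0.01. At 360 min, where JAZ1 and JAZ12 were called, 2 of 6 shoot markers, RBCS1A (0.26) and PSAD1 (0.26), were higher in wounded shoots, against 3.08% of all genes. The root marker AT4G11290 (-0.38) was lower, 1 of 6 tested, against 4.22% of all genes called lower. Their part in the JAZ values was not tested.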

How the data were processed

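Image quantification used Agilent Feature Extraction 7.1.1 (named in the submitters' processing notes). Per the file headers, the deposited files give mean and local background intensity for 22575 spots in both channels, without normalization. They also give a log10 ratio of Cy5 over Cy3, background-subtracted and dye-normalized per the file headers, and the authors' value table held that ratio within 0.001 on every array.

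Background was corrected by normexp (offset 50, which pulls dim genes toward 0) and each array by loess, with 1075 control spots and outlier spots at weight 0 (limma 3.58.1, R 4.3.3). Ratios with wounded RNA in Cy3 were sign-turned. Outlier spots (13 to 888 per array) were dropped, and a dye pair was averaged to 1 replicate. lmFit and eBayes used 1 coefficient per time (2 residual, 3.58 prior degrees of freedom), 2-sided, adjusted by Benjamini-Hochberg. Levels had Aquantile normalization and a fit each for wounded and control shoots. Each day of image extraction held 1 replicate and each slide 1 array, so batch and replicate coincide. No such day held both times, so an effect of the day on comparisons between times could not be tested.

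The members and the 8 gene lists were chosen with earlier results of these data known, so their counts beside the background shares are descriptive only. Named were the JAZ genes, up to 3 called genes of each list with the smallest adjusted p in each contrast, and the 5 closest in pattern. JAZ4, COI1, NINJA, AOC4, ILL6 and AT2G38240 were named after their values were seen. Symbols came from the RefSeq table of TAIR10.1 (21191 of 21500 loci). The genome build was not stated, so neither coordinates nor sequences are printed. The steps were tested on simulated data.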

Additional observations from a re-analysis of the deposited data

Results flagged for a closer look

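For 7 JAZ genes the wound response differed between the times by a test of the difference itself (limma, adjusted p under 0.05). Of the 7 members measured everywhere 6 were called lower, against a background of 4.83% of genes tested. The log2 ratio at 360 min minus that at 30 min was -3.53 for JAZ9, -3.29 for JAZ6, -2.92 for JAZ1, -1.82 for JAZ2, -1.34 for JAZ5, -0.70 for JAZ3 and -0.64 for JAZ12. JAZ5 was tested only through its wounded shoots at 30 min, since the control signal cleared background on just 1 of 4 arrays at each time, and the other 6 were measured in every condition. The cause of the differences was not tested.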

How the results depend on the processing

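At 30 min the count of JAZ genes called was 7 or 8 in every alternative, and the stricter filter on dim probes tested 7, without JAZ5, and called all 7. Over all genes the count of 1282 became 2096 with the 8 arrays and the pair as a random block, 779 with wounded RNA in Cy3 only, and 304 to 1680 without 1 replicate. At 360 min the 2 JAZ calls became 1 with no background correction, with an offset of 0, on the authors' log ratios, with median centring or with flagged spots kept. They became 0 with each time fitted alone, with wounded RNA in Cy3 only or with scale normalization, 3 with the random block or with wounded RNA in Cy5 only, and 0 to 3 without 1 replicate. The 1398 genes of that time became 124 with an offset of 0, 130 on the authors' log ratios, 79 with each time alone, 2856 with the random block, 2353 with wounded RNA in Cy5 only, 190 in Cy3 only, 662 with scale normalization and 79 to 1317 without 1 replicate. Of these genes 42.2% were higher, against 56.9% on the authors' log ratios. The 7 JAZ differences between times became 4 to 8 without 1 replicate. The 1414 genes became 716 with an offset of 0, 716 on the authors' log ratios, 2929 with the random block, 502 in Cy3 only and 169 to 1720 without 1 replicate. In control shoots between times the JAZ count of 0 became 1 without normalization between arrays and 0 to 3 without 1 replicate. The 520 genes became 8342 without that normalization, 325 without the filter on dim probes, 315 with flagged spots kept, 165 with 4 conditions in 1 fit and 220 to 2333 without 1 replicate. In wounded shoots between times the JAZ count of 7 stayed at 5 to 8, and the 1120 genes became 7927 without normalization between arrays, 431 with 4 conditions in 1 fit and 421 to 2602 without 1 replicate.

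Same-numbered samples of the 2 times correlated at -0.03 in ratios, 0.10 in control levels and 0.04 in wounded levels. At 2 replicates per time these values cannot decide whether the samples were prepared as pairs, and the main fits did not pair them. With the replicate block the JAZ count was 7 for the difference, 2 in control and 7 in wounded shoots, and over all genes 1248, 956 and 1131. Without 1 replicate the 360 min log2 ratios ran from -0.19 to 0.50 for JAZ6, from -0.0088 to 0.43 for JAZ9 and from -0.11 to 0.51 for JAZ10, each lowest without 360 min replicate 1. Without normalization between arrays the median of all genes moved to 0.85 in control and 0.84 in wounded shoots. The control differences then turned to 0.14 for JAZ1, 0.63 for JAZ2, 0.056 for JAZ3, 0.32 for JAZ6, 0.88 for JAZ9 and 0.48 for JAZ10. Relative to that median they were -0.71, -0.22, -0.80, -0.53, 0.03 and -0.38. The wounded difference of JAZ12 turned to 0.41, or -0.42 relative to the median, and the control one was 1.05. Without 1 replicate the control difference ran from -0.61 to 0.053 for JAZ9, highest without 30 min replicate 2. That of JAZ12 ran from -0.14 to 0.16, with -0.0045 without 30 min replicate 2, and was -0.023 with no background correction and -0.042 with quantile normalization. Of the values of single JAZ genes under alternatives, 555 kept direction and call, 32 lost the call, 17 gained it and 15 turned. These counts hold repeats, since some alternatives gave the same fit. The cause of these shifts was not tested. A block for slide or image extraction day was not run, as each held 1 array or 1 replicate. Each time fitted alone gives no difference. Signal over background limits JAZ5 most.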
